A study of Mus musculus with 8 samples.

Results

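Brain sections of mice given paclitaxel and then ganciclovir (PTX+GCV) were compared with sections of mice given vehicle only (Control), to show which transcripts still differed from vehicle once cells expressing p16 had been targeted for removal. The comparison held 4 of the 8 sections of the series, 2 per group. UMIs (unique molecular identifiers, each standing for 1 captured transcript) were summed over every spot with at least 200 detected genes and at most 30% of UMIs from mitochondrially encoded genes. This kept 2775 and 2839 spots in PTX+GCV and 2346 and 2571 spots in Control.

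All mice carried the p16-3MR transgene, in which the p16 promoter drives a fusion of luciferase, red fluorescent protein and a viral thymidine kinase, so only cells with an active p16 promoter are sensitive to ganciclovir. They were labelled as male and 9 to 10 months old, and the titles of all groups call the brains young. PTX+GCV mice had received paclitaxel at 5 mg/kg/day by intraperitoneal injection in 2 cycles of 5 days, 7 days apart, and after recovery ganciclovir at 25 mg/kg/day in 2 cycles of 5 days, 2 weeks apart. PTX mice, whose values are set beside the others for orientation, received vehicle in place of ganciclovir. Control mice received DMSO and saline. Brains were taken 6 months after paclitaxel. No section came from a mouse given ganciclovir without paclitaxel, so an effect of the drug itself and an effect of removing p16-expressing cells cannot be told apart. The labels gave 1 batch for all sections and did not say whether both sections of a group were cut from 1 mouse, so the p-values measure only the spread between these sections, which may be technical.

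Paclitaxel stabilises microtubules and blocks dividing cells, and p16, a product of Cdkn2a, holds the cell cycle in senescent cells, which secrete cytokines, proteases and growth factors. A Visium section measures a slab of tissue, not sorted cells. The choroid plexus makes cerebrospinal fluid from a sheet of epithelium in the ventricles, and the habenula is a small nucleus beside the third ventricle that relays forebrain signals to the midbrain. Both are small on a coronal section, and both carry genes that few other brain cells express.

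The kept spots held 26275532 and 38561349 UMIs in PTX+GCV and 19870666 and 33160865 in Control. The median spot held 9006 and 12657 UMIs in PTX+GCV, against 7583 and 12655 in Control, and mitochondrially encoded genes took 11.9% and 9.58% of UMIs in PTX+GCV, against 11.8% and 13.9% in Control. Clusters of spots named from marker genes gave thalamus, isocortex, hypothalamus, hippocampus, striatum, fiber tracts, piriform and amygdalar cortex, meninges, reticular thalamus with pallidum, choroid plexus and habenula in every section. The sections labelled PTX+ABT263 entered the model only to estimate the spread. Levels are in CPM, a gene's UMIs as a share of its section's scaled total. These sections went against their label of male, with 20.4 and 20.9 CPM of Xist, which is transcribed from an inactive X, against 0 and 0.0242 in PTX+GCV and 0 and 0 in Control. The fit without them is given below.

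No gene passed in the whole section. Of 16673 genes tested with edgeR's quasi-likelihood test, 0 reached an adjusted p (Benjamini-Hochberg) under 0.05 in either direction (0% of genes), and the smallest adjusted p was 0.0614. At an unadjusted p under 0.05, 869 genes (5.21%) lay higher in PTX+GCV and 912 (5.47%) lower. This balance depended on the scaling, since total counts gave 2227 higher and 365 lower, and without PTX+GCV replicate 2 the numbers were 342 and 369. Both PTX+GCV sections lay above both Control sections for 3441 genes (20.6%) and below them for 3380 (20.3%). DESeq2, the alternative tool, passed 20 genes as higher (0.136%) and 29 as lower (0.197%) of the 14733 to which it gave an adjusted p, and edgeR without both PTX+ABT263 sections passed 3 as higher (Chrna3, Gpr151 and Nppa) and 6 as lower (Ttr, Cox8b, Ecrg4, Malat1 and the unnamed models 2900040C04Rik and B230209E15Rik). In that fit the edgeR adjusted p was 0.0288 for Chrna3, 0.0255 for Gpr151, 0.0374 for Nppa, 0.012 for Ttr, 0.0163 for Cox8b and Ecrg4 and 0.0282 for Malat1. The genes below are therefore given by their values, and the shares above are the background for every count.

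**Figure D1:**
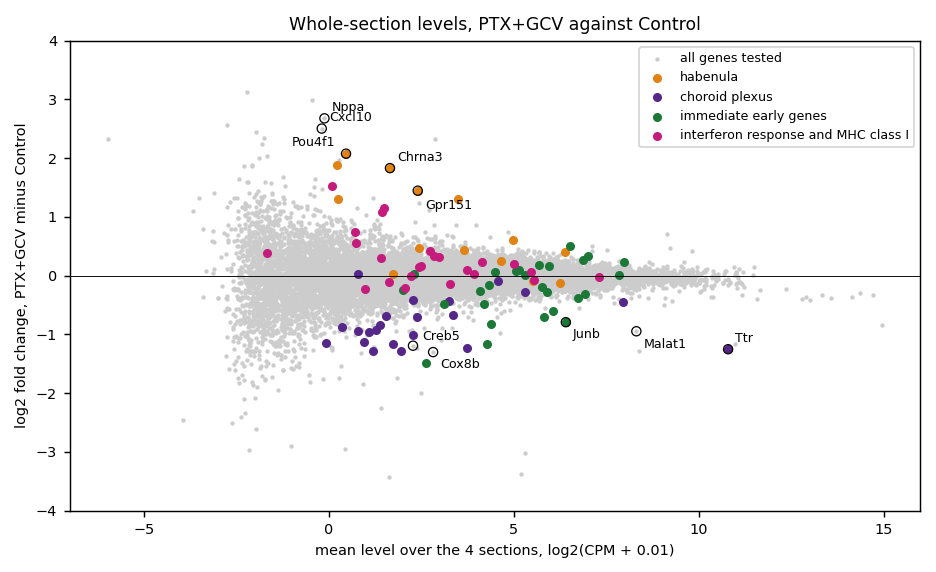
Each point is 1 of the genes tested in whole sections, with its mean level on the x axis (log2 CPM) and its difference on the y axis (log2, PTX+GCV minus Control). The y axis ends at 4 in both directions, with 3 genes outside it. Coloured points mark the habenula, choroid plexus, immediate early and interferon lists, and the named habenula genes lie at the top of the cloud and the choroid plexus genes at the bottom.

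The 3 annotated genes with the smallest p among those higher in PTX+GCV had most of their UMIs in the habenula. Chrna3, the alpha 3 subunit of the nicotinic acetylcholine receptor (mm10 chromosome 9, 55010111 to 55026562, minus strand), held 3.82 and 5.90 CPM in PTX+GCV, 4.50 and 4.35 in PTX and 1.45 and 1.34 in Control. Its log2 difference between PTX+GCV and Control was 1.83 ± 0.23 (SE, n = 2 each, edgeR adjusted p = 0.0614). The PTX+GCV sections lay with the PTX sections and above both Control sections. Gpr151, an orphan receptor of habenular axons, held 6.86 and 8.53 CPM in PTX+GCV, 5.18 and 4.15 in PTX and 2.84 and 2.84 in Control, a log2 difference of 1.45 ± 0.20 (edgeR adjusted p = 0.0614). Nppa, which encodes atrial natriuretic peptide, held 1.41 and 1.76 CPM in PTX+GCV, 1.32 and 1.34 in PTX and 0.15 and 0.312 in Control, a log2 difference of 2.68 ± 0.37 (edgeR adjusted p = 0.0614). None of the 3 overlapped between PTX+GCV and Control. The PTX sections share the Control sections as their reference, so their position is given only side by side.

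Further genes of this nucleus showed the same order. Pou4f1, a transcription factor of habenular neurons, held 1.89 and 2.49 CPM in PTX+GCV, 1.84 and 1.29 in PTX and 0.648 and 0.437 in Control. Gng8, a G protein gamma subunit, held 19.3 and 13.0 CPM in PTX+GCV, 14.5 and 13.4 in PTX and 5.09 and 7.53 in Control. Of the 14 habenula genes tested, 11 lay higher in PTX+GCV at an unadjusted p under 0.05 and 0 lower, and the median log2 difference was 0.54, against −0.00 over all genes. With 1 section left out at a time this median ranged between 0.46 and 0.68.

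The amount of habenula on the sections moved with these genes. Habenula spots numbered 28 and 32 in PTX+GCV, 19 and 20 in PTX and 10 and 14 in Control, and held 1.23% and 1.19% of a section's UMIs in PTX+GCV, against 0.179% and 0.588% in Control. These spots carried 65.1% of all UMIs of Chrna3, 74.4% of those of Gpr151 and 83.2% of those of Pou4f1. In both Control sections the habenula reached the border of the capture area, with 4 and 6 of its spots on the outermost array rows, against 0 and 0 in PTX+GCV. The clusters were drawn with these genes among others, so the spot numbers are a description.

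Within habenula spots the genes did not follow 1 pattern. In CPM within those spots, Gpr151 held 471 and 571 in PTX+GCV and 872 and 262 in Control, so the Control sections lay on either side of both PTX+GCV sections. Chrna3 held 208 and 370 in PTX+GCV and 0 and 35.9 in Control, without overlap. Tac2, the neurokinin B precursor, held 1162 and 1214 in PTX+GCV and 0 and 174 in Control. The habenula spots of Control replicate 1 held only 35560 UMIs in all. When every section gave the same number of spots from each cluster, 2037 in all, the median of the habenula list was 0.37, the level of Chrna3 differed by 1.22 on the log2 scale (edgeR adjusted p = 0.284) and the level of Gpr151 by 0.33 (edgeR adjusted p = 0.637).

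**Figure D2:**
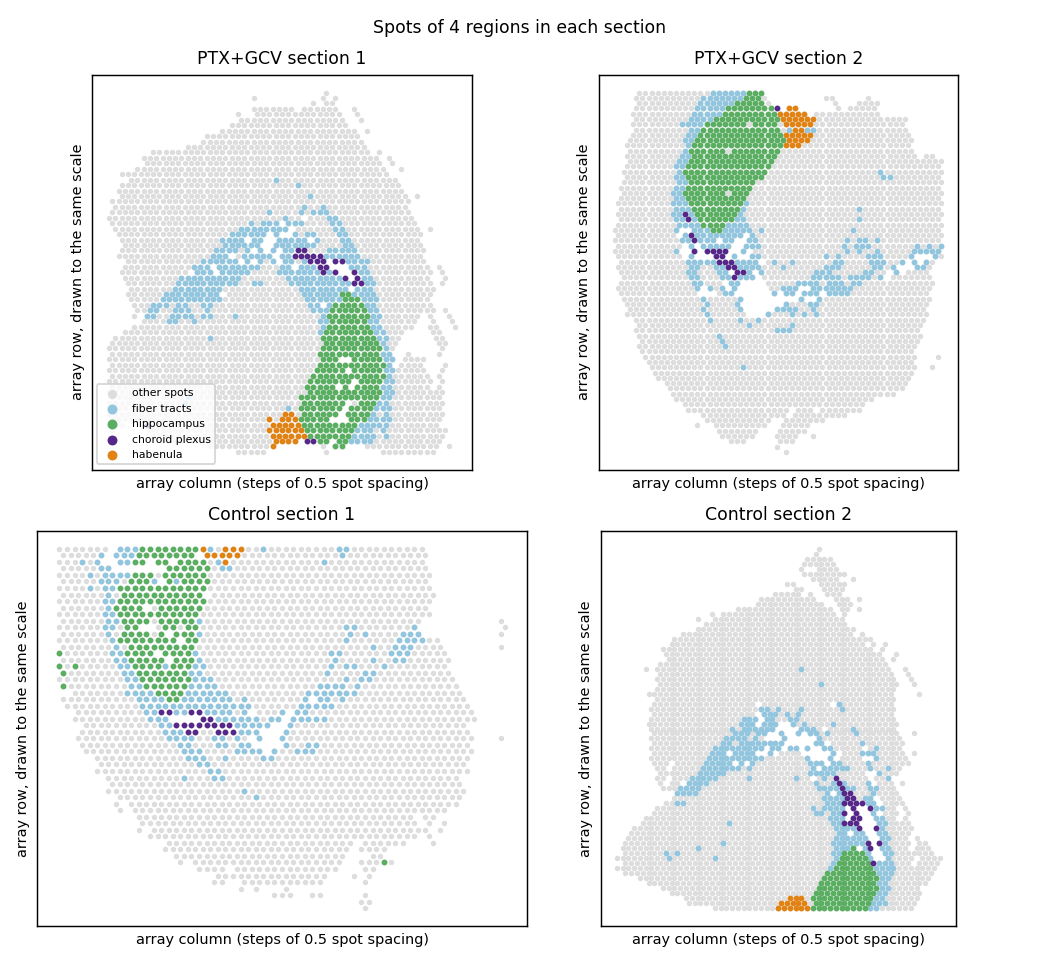
Spots of the 2 PTX+GCV sections (top row) and the 2 Control sections (bottom row) by array column (x axis) and array row (y axis), with fiber tracts, hippocampus, choroid plexus and habenula coloured and all other spots grey. Habenula and hippocampus reach the border of the array in both Control sections, and a few hippocampus spots do in PTX+GCV replicate 2.

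Choroid plexus genes lay lower in PTX+GCV in whole sections. Ttr, the thyroxine carrier transthyretin and the most abundant product of this epithelium, held 1104 and 990 CPM in PTX+GCV, 2026 and 2793 in PTX and 2671 and 2322 in Control. Its log2 difference from Control was −1.25 ± 0.21 (SE, n = 2 each, edgeR adjusted p = 0.113). Both PTX+GCV sections lay at less than the level of any other section of these 3 groups. Cox8b, a subunit of cytochrome c oxidase, held 4.52 and 3.65 CPM in PTX+GCV, 9.52 and 8.01 in PTX and 10.3 and 9.68 in Control, a log2 difference of −1.30 ± 0.23 (edgeR adjusted p = 0.144). Ecrg4, a secreted augurin precursor, held 8.79 and 7.13 CPM in PTX+GCV, 17.0 and 21.7 in PTX and 19.6 and 17.4 in Control. Kcnj13, an inward rectifier potassium channel of the epithelium, held 1.82 and 2.22 CPM in PTX+GCV, 3.95 and 5.67 in PTX and 5.09 and 4.15 in Control. For all 4 genes both PTX sections lay above both PTX+GCV sections.

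Of 22 choroid plexus genes tested, 18 lay lower at an unadjusted p under 0.05 and 0 higher, 19 were below both Control sections in both PTX+GCV sections, and the median log2 difference was −0.90. Leaving out 1 section at a time gave medians between −1.09 and −0.65. Genes of the neighbouring ependyma, the ciliated lining of the ventricles, had a median of −0.44, with 3 of 11 lower and 0 higher. Rarres2, which encodes the chemoattractant chemerin, was the ependymal list's leading member, with 8.86 and 8.44 CPM in PTX+GCV against 11.5 and 12.3 in Control.

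Spots of the choroid plexus cluster were about as many in both groups, 24 and 20 in PTX+GCV and 19 and 26 in Control, but each held fewer UMIs. The median was 4008 and 4346 UMIs per spot in PTX+GCV, against 10001 and 9022 in Control, and the cluster held 0.517% and 0.287% of a section's UMIs in PTX+GCV against 1.17% and 0.898% in Control. The 2 groups did not overlap in either measure. In such sums, fewer cells of a type and less RNA per cell cannot be told apart.

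Within choroid plexus spots the genes overlapped between groups. Ttr held 161260 and 236180 CPM within those spots in PTX+GCV and 208570 and 225860 in Control. Ecrg4 held 1221 and 1538 in PTX+GCV and 1441 and 1598 in Control. Cox8b was the exception, with 383 and 525 in PTX+GCV and 721 and 819 in Control. These spots carried 81.8% of all Ttr UMIs, 77.7% of those of Ecrg4 and 71.1% of those of Cox8b. With the same number of spots per cluster from every section, the median of the choroid plexus list was −0.81 and Cox8b passed in edgeR (log2 difference −1.18, adjusted p = 0.0352). In hippocampus spots the list ran the other way, with 5 of 7 tested genes higher at an unadjusted p under 0.05, 0 lower and a median of 0.65, which was 0.07 without PTX+GCV replicate 2. The summed level of the list there was 407 and 2052 CPM in PTX+GCV, against 576 and 274 CPM in Control, so that PTX+GCV replicate 2 stood apart.

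**Figure D3:**
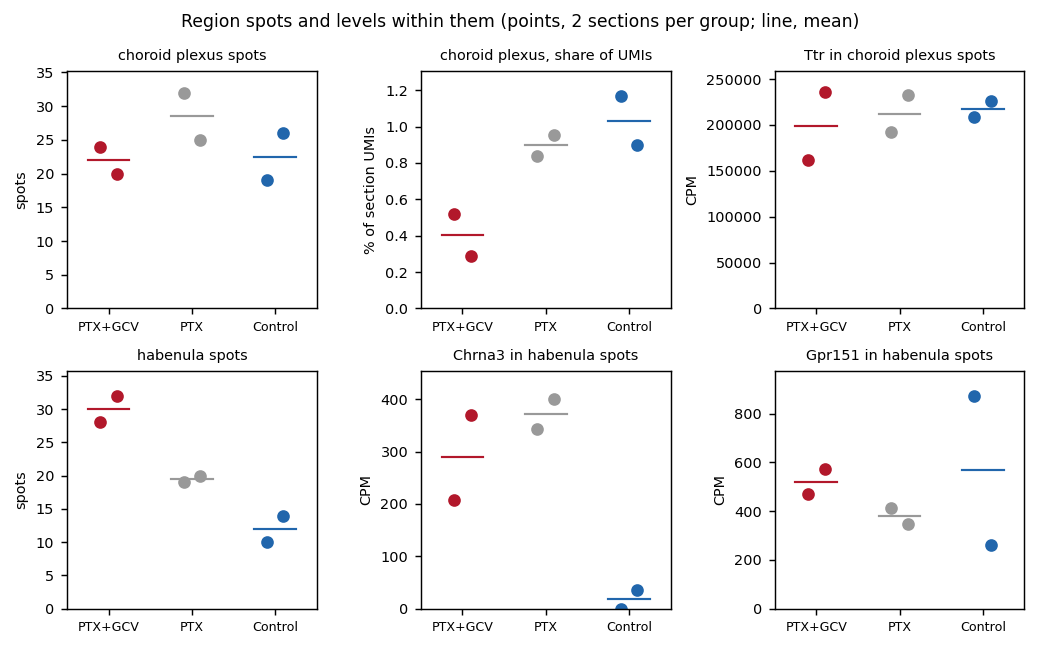
Choroid plexus (top row) and habenula (bottom row) by section, with the PTX+GCV, PTX and Control sections as points from left to right. The panels give numbers of spots, the choroid plexus share of a section's UMIs in percent, and levels of Ttr, Chrna3 and Gpr151 in CPM within the cluster's own spots. The choroid plexus share is lowest in the PTX+GCV sections and the habenula spot numbers are lowest in Control.

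Immediate early genes are transcribed by neurons and vessels within minutes of a stimulus, and several of them lay lower in PTX+GCV. Junb held 61.5 and 62.1 CPM in PTX+GCV, 77.6 and 58.9 in PTX and 127 and 87.8 in Control, a log2 difference of −0.79 ± 0.15 (edgeR adjusted p = 0.162). Fos, which pairs with Jun proteins in the AP-1 factor, held 37.9 and 46.5 CPM in PTX+GCV, 58.7 and 49.0 in PTX and 77.5 and 61.7 in Control. Neither overlapped between PTX+GCV and Control, and Control replicate 1 was the highest section of these groups for both. Ccn1, a matricellular protein, held 2.60 and 3.63 CPM in PTX+GCV and 12.6 and 5.62 in Control. Btg2, an antiproliferative gene induced by p53 and by activity, held 12.3 and 11.1 CPM in PTX+GCV and 37.4 and 16.4 in Control. Ier5 ran the other way, with 94.8 and 121 CPM in PTX+GCV and 73.9 and 78.2 in Control.

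Of 27 immediate early genes tested, 10 lay lower and 4 higher at an unadjusted p under 0.05, with a median log2 difference of −0.19 and fitted values above 0 for 12 and below 0 for 15. Without PTX+GCV replicate 1 the median was −0.06, and without PTX+GCV replicate 2 it was −0.34. By region, Fos held 71.9 and 73.3 CPM within isocortex spots in PTX+GCV, against 167 and 97.6 in Control, and in hippocampus 20.6 and 29.3 in PTX+GCV, against 36.6 and 41.2 in Control. The sections did not overlap in either region. Over the whole list in hippocampus spots, 0 of 25 tested genes lay higher and 2 lower, and the median was 0.11, with 16 fitted values above 0 and 9 below. It turned to −0.06 without Control replicate 2 and −0.22 without PTX+GCV replicate 2.

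The promoters of the 2 leading members that lay lower are shown because both hold TGACG, the half-site of the cAMP response element, on one strand or the other. The sequences are from RefSeq (GRCm38.p6), run 250 bases before to 50 bases after the start of transcription, and have the half-site in capitals.
Junb, chr8:84978699-84978998, minus strand: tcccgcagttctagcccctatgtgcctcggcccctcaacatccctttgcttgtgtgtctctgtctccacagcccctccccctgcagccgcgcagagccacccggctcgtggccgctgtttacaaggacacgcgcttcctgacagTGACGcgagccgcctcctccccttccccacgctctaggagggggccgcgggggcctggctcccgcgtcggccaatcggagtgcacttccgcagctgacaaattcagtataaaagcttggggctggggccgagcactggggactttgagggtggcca
Fos, chr12:85473640-85473939, plus strand: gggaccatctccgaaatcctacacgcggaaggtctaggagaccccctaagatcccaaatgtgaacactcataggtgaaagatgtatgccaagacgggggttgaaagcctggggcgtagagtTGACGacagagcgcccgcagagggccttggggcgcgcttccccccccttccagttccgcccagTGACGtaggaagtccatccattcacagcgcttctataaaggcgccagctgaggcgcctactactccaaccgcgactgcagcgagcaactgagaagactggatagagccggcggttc
TGACG was found on either strand in 20 of the 34 promoters of listed immediate early genes and in 6837 of all 32851 promoters (20.8%). The full palindrome TGACGTCA, which contains the half-site, was in 2 of the 34 and in 588 of all (1.79%), and the AP-1 letters TGANTCA were in 1 of the 34 and in 2565 of all (7.81%). These are matches of letters, and no binding was measured.

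**Figure D4:**
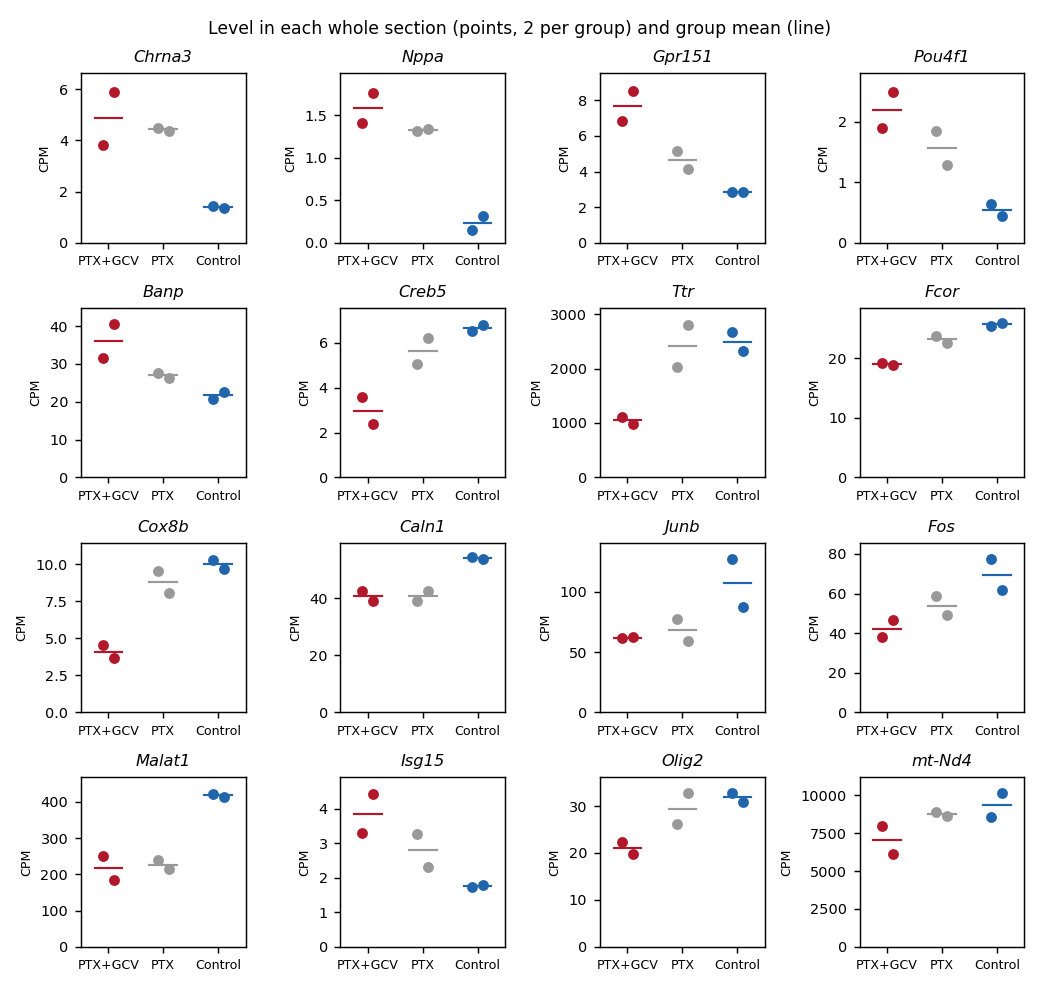
CPM by section (y axis from 0) for 16 named genes, with the 2 sections each of PTX+GCV, PTX and Control as points from left to right. Chrna3, Nppa, Gpr151 and Pou4f1 lie lowest in Control, Ttr and Cox8b lie lowest in PTX+GCV, and Junb and Malat1 lie highest in Control.

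Cdkn2a itself (mm10 chromosome 4, 89274471 to 89294653, minus strand) was near the limit of detection in both groups. It was found in 3 of 2775 spots (0.108%, exact 95% binomial interval 0.0223% to 0.316%) and 4 of 2839 spots (0.141%, 0.0384% to 0.360%) in PTX+GCV. In Control it was found in 2 of 2346 spots (0.0853%, 0.0103% to 0.308%) and 5 of 2571 spots (0.194%, 0.0632% to 0.453%). The intervals cover counting error only, and all 4 overlapped. The mean share was 0.125% ± 0.0232 in PTX+GCV and 0.140% ± 0.0772 in Control (SD, n = 2 each, exact two-sided permutation p = 1, where the smallest possible is 0.333). The log2 difference in its level was −0.37 ± 0.68 (edgeR adjusted p = 0.884), and its sign turned in 3 alternatives. The standard error was larger than the difference, and what size of difference could be detected at this depth was not tested. In PTX, set beside for orientation, Cdkn2a was found in 16 of 2558 spots (0.625%) and 9 of 2735 spots (0.329%).

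The 10 genes of the study's senescence panel held 1 below an unadjusted p of 0.05. Chek2, a checkpoint kinase, held 1.45 and 0.894 CPM in PTX+GCV and 1.75 and 1.84 in Control. Cdkn1a, which encodes p21, held 10.6 and 18.0 CPM in PTX+GCV and 11.6 and 13.8 in Control, and Trp53 held 17.8 and 15.4 in PTX+GCV and 14.0 and 16.3 in Control. Both overlapped between groups. The panel's median log2 difference was 0.09, but without PTX+GCV replicate 2 it was −0.15.

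Of 30 tested genes of the senescence-associated secretory phenotype, 4 lay higher and 1 lower in whole sections, with a median of 0.00. In hippocampus spots 2 of 13 lay higher and 0 lower, with a median of 0.31 and 11 fitted values above 0. With 1 section left out at a time that median ranged between 0.26 and 0.60. The list's median was 0.01 in isocortex and 0.01 in fiber tracts. By whole section, Cxcl10, an interferon-induced chemokine, held 1.26 and 1.62 CPM in PTX+GCV, 1.05 and 0.515 in PTX and 0.449 and 0.125 in Control, a log2 difference of 2.5 ± 0.50 (edgeR adjusted p = 0.162). Icam1, the leukocyte adhesion molecule, held 2.08 and 3.87 CPM in PTX+GCV and 1.60 and 1.72 in Control. Both PTX+GCV sections lay above both Control sections for each.

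Interferon-induced genes pointed the same way. Isg15, a ubiquitin-like modifier, held 3.30 and 4.42 CPM in PTX+GCV, 3.27 and 2.32 in PTX and 1.75 and 1.78 in Control, a log2 difference of 1.14 ± 0.25 (edgeR adjusted p = 0.173). Usp18, which removes that modifier, held 1.37 and 1.72 CPM in PTX+GCV and 0.599 and 0.5 in Control. Oasl2, of the oligoadenylate synthetase family, held 4.75 and 2.71 CPM in PTX+GCV and 1.70 and 1.72 in Control. Of 24 genes of the interferon response and MHC class I, 9 lay higher and 0 lower, with a median of 0.18, which was 0.06 without Control replicate 2. Reactive astrocyte genes had 2 of 15 higher and 0 lower, with a median of 0.01, and Lcn2, the acute phase protein lipocalin 2, overlapped at 0.185 and 2.37 CPM in PTX+GCV and 0.0499 and 0.250 in Control.

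In whole sections glial identity genes lay slightly lower in PTX+GCV. Olig2, the oligodendrocyte lineage transcription factor, held 22.4 and 19.9 CPM in PTX+GCV, 26.2 and 32.8 in PTX and 32.8 and 30.9 in Control, a log2 difference of −0.60 ± 0.11 (edgeR adjusted p = 0.144). Mobp, a myelin protein, held 484 and 400 CPM in PTX+GCV, 524 and 690 in PTX and 646 and 600 in Control. S100b, a calcium-binding protein of astrocytes, held 189 and 169 CPM in PTX+GCV, 203 and 222 in PTX and 237 and 224 in Control. The PTX+GCV sections were the lowest of these groups for each. Tyrobp, the microglial adaptor of Trem2, held 54.6 and 49.2 CPM in PTX+GCV and 64.9 and 61.4 in Control.

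By list, 6 of 23 myelin genes, 4 of 11 oligodendrocyte precursor genes, 7 of 18 astrocyte genes and 3 of 20 microglial genes lay lower at an unadjusted p under 0.05, and 0 lay higher in any of the 4. Their median log2 differences were −0.23, −0.23, −0.18 and −0.10. Fiber tract spots, the white matter, held 2.99% and 1.54% of a section's UMIs in PTX+GCV and 3.31% and 2.44% in Control. Within the fiber tract spots 0 of 23 myelin genes passed an unadjusted p under 0.05 in either direction, and their median was −0.04. Within isocortex spots 3 of 23 lay lower and 0 higher, with a median of −0.05. In hippocampus spots 2 of 18 astrocyte genes lay higher and 0 lower, with a median of 0.02. Microglial genes there had 1 of 20 higher and 1 lower, with a median of 0.06. The myelin and oligodendrocyte precursor medians in hippocampus were −0.11 and −0.14. They were −0.45 and −0.31 without Control replicate 1, and 0.46 and 0.22 without Control replicate 2, so their sign depended on single sections. The part of white matter content in the whole-section values was not tested further.

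**Figure D5:**
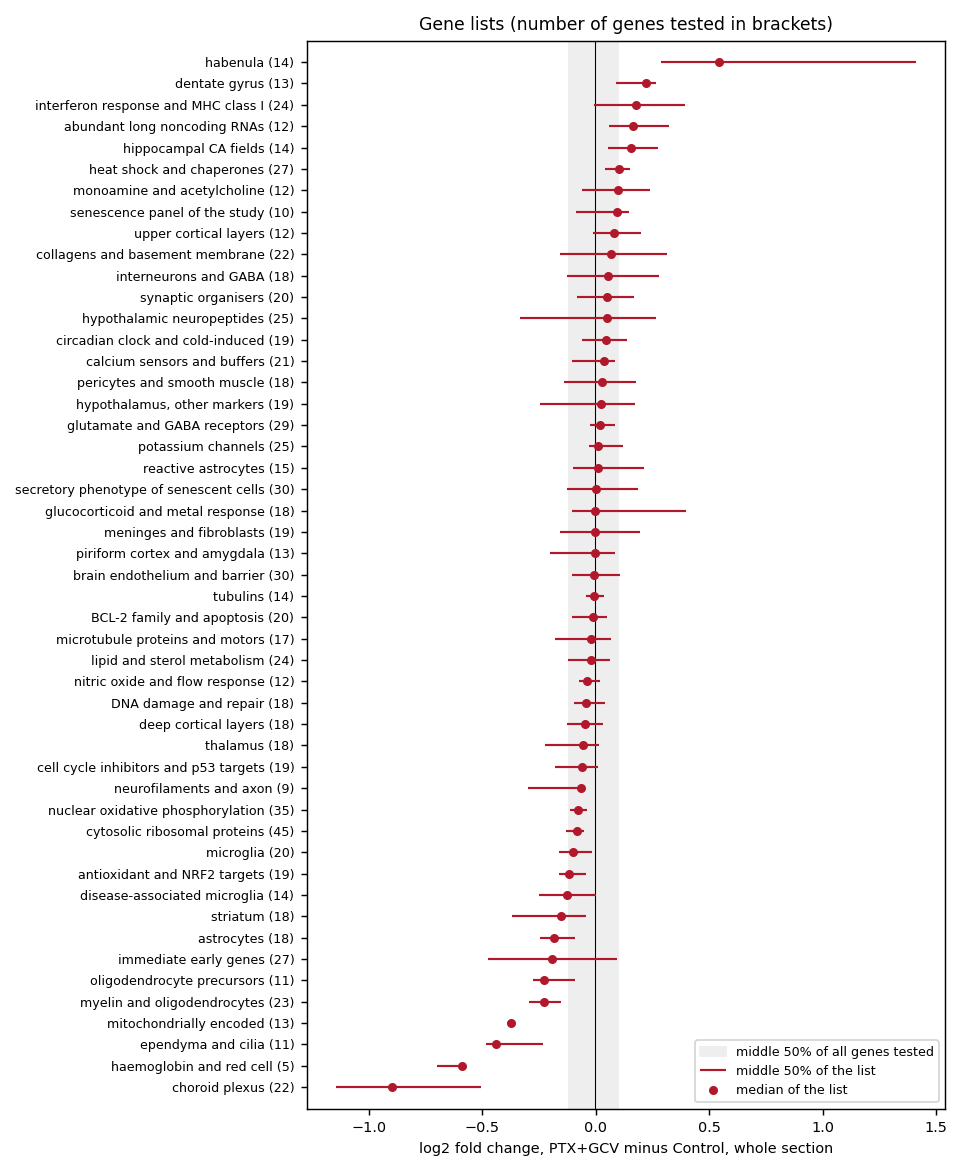
Median log2 difference (PTX+GCV minus Control, x axis) of the tested members of each gene list, as a point, with a line over the middle 50% of members. The choroid plexus list lies lowest and the habenula list highest.

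In whole sections all 13 mitochondrially encoded genes had fitted values below Control, 12 of them at an unadjusted p under 0.05, with a median of −0.37. mt-Nd4, a subunit of complex I, held 7960 and 6119 CPM in PTX+GCV, 8934 and 8632 in PTX and 8575 and 10169 in Control. mt-Nd6, transcribed from the opposite strand of the mitochondrial genome, held 21.9 and 13.7 CPM in PTX+GCV, 18.1 and 16.8 in PTX and 32.0 and 25.5 in Control. PTX+GCV replicate 2 was the lowest section for both, and without it the list's median was −0.17. The list's median was −0.29 in isocortex and −0.25 in fiber tracts. In hippocampus it was 0.07, with 8 fitted values above 0 and 0 genes at an unadjusted p under 0.05. That hippocampal median was −0.29 without Control replicate 1 and 0.68 without Control replicate 2, so its sign depended on single sections. The spot filter also used these genes, and keeping all spots under tissue passed 0 genes as well. Nuclear genes of oxidative phosphorylation had 5 of 35 lower and 0 higher with a median of −0.08, and cytosolic ribosomal protein genes 3 of 45 lower and 0 higher with a median of −0.08. Scaled by total counts these medians turned to 0.01 and 0.01, so their direction depended on the scaling. Of 19 antioxidant genes 6 lay lower and 0 higher, and Nqo1, a quinone reductase, held 3.37 and 2.61 CPM in PTX+GCV and 5.49 and 4.09 in Control.

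In whole sections genes of the vessel wall showed no common direction. Of 30 genes of brain endothelium and its barrier, 2 lay higher and 2 lower, with a median of −0.01. Esam, an endothelial adhesion molecule, held 12.9 and 14.6 CPM in PTX+GCV, 14.9 and 15.5 in PTX and 10.5 and 11.2 in Control. Abcb1a, the efflux pump P-glycoprotein, held 10.2 and 10.3 CPM in PTX+GCV, 14.1 and 12.8 in PTX and 13.6 and 11.9 in Control. Nos3, the endothelial nitric oxide synthase, held 5.45 and 5.68 CPM in PTX+GCV and 6.73 and 5.87 in Control. Pericyte and smooth muscle genes had 0 of 18 higher and 1 lower. Basement membrane and collagen genes had 5 of 22 higher and 1 lower, with Col6a2, a chain of collagen VI, at 6.34 and 6.36 CPM in PTX+GCV and 4.29 and 4.12 in Control. Within hippocampus spots the endothelial list had 1 of 30 higher and 0 lower, with a median of 0.24 and 22 fitted values above 0. Within isocortex spots it had 2 higher and 0 lower, with a median of 0.11 and 19 above 0. In fiber tracts its median was 0.04. Pericyte and smooth muscle medians were 0.33 in hippocampus, 0.18 in isocortex and −0.10 in fiber tracts.

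Tubulins, the target of paclitaxel, gave 0 of 14 genes at an unadjusted p under 0.05 in either direction, with a median of −0.01. Tubb3, the neuronal beta tubulin, held 325 and 355 CPM in PTX+GCV, 300 and 355 in PTX and 297 and 350 in Control. Tuba1a, an alpha tubulin, held 1197 and 1104 CPM in PTX+GCV and 1149 and 1249 in Control. Both overlapped between groups. Among 17 microtubule proteins and motors, 1 lay higher and 0 lower, and Kif5a, an axonal kinesin, held 578 and 481 CPM in PTX+GCV and 904 and 525 in Control, where Control replicate 1 stood apart. Within isocortex spots 0 of these 17 genes lay higher and 7 lower, with a median of −0.08.

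Several leading genes belonged to no region of small size. Banp, a nuclear matrix protein, held 31.6 and 40.5 CPM in PTX+GCV, 27.7 and 26.3 in PTX and 20.7 and 22.6 in Control, a log2 difference of 0.74 ± 0.12 (edgeR adjusted p = 0.113). Creb5, of the CREB family, held 3.60 and 2.37 CPM in PTX+GCV, 5.04 and 6.24 in PTX and 6.53 and 6.78 in Control, a log2 difference of −1.19 ± 0.19 (edgeR adjusted p = 0.113). Fcor, a corepressor of Foxo1, held 19.3 and 19.0 CPM in PTX+GCV, 23.8 and 22.6 in PTX and 25.5 and 26 in Control. In these 3 the PTX+GCV sections were farther from Control than the PTX sections were. Caln1, a calcium-binding protein of neurons, held 42.4 and 39.1 CPM in PTX+GCV, 39.1 and 42.5 in PTX and 54.3 and 53.7 in Control. Malat1, a nuclear long noncoding RNA, held 250 and 184 CPM in PTX+GCV, 239 and 215 in PTX and 421 and 414 in Control, a log2 difference of −0.95 ± 0.19 (edgeR adjusted p = 0.162). For Caln1 and Malat1 the PTX+GCV and PTX sections lay together below Control.

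Genes of the clock and of the glucocorticoid response included 2 with small errors. Bhlhe40, a repressor in the clock, held 99.2 and 114 CPM in PTX+GCV, 85.4 and 87.7 in PTX and 74.6 and 79.6 in Control, a log2 difference of 0.46 ± 0.09 (edgeR adjusted p = 0.144). Fkbp5, a cochaperone of the glucocorticoid receptor, held 17.4 and 20.8 CPM in PTX+GCV, 15.2 and 15.6 in PTX and 13.9 and 13.8 in Control. Neither overlapped between groups. The clock list had 2 of 19 higher and 1 lower, and the glucocorticoid and metal list 2 of 18 higher and 4 lower. Mt1, a metallothionein, was among those lower, at 1190 and 1081 CPM in PTX+GCV and 1287 and 1618 in Control.

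Markers of the hippocampus and the striatum were set beside the number of spots of those regions. Hippocampus spots numbered 238 and 268 in PTX+GCV and 200 and 105 in Control, of which 0 and 3 in PTX+GCV and 8 and 10 in Control lay on the outermost array rows. Neurod6, a transcription factor of pyramidal neurons, held 66.1 and 66.5 CPM in PTX+GCV and 48.5 and 53.1 in Control, and Dsp, desmoplakin of dentate granule cells, held 3.04 and 4.76 in PTX+GCV and 2.09 and 1.62 in Control. Neither overlapped. Of CA field genes 3 of 14 lay higher and 1 lower, with a median of 0.15, and of dentate genes 3 of 13 higher and 2 lower, with a median of 0.22.

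Striatum spots numbered 109 and 160 in PTX+GCV and 142 and 164 in Control. Scn4b, a sodium channel beta subunit abundant there, held 41.8 and 50.8 CPM in PTX+GCV, 66.2 and 73.2 in PTX and 73.3 and 62.4 in Control. The striatal list had 2 of 18 lower and 0 higher, and its median of −0.16 was 0.06 without PTX+GCV replicate 1 and −0.53 without PTX+GCV replicate 2. Within Control the section with more hippocampus spots held less Neurod6, and the section with more striatum spots less Scn4b. By share of a section's UMIs the Control sections ranked the other way. Hippocampus spots held 8.86% and 11.0% of UMIs in PTX+GCV and 5.51% and 6.81% in Control. Striatum spots held 2.95% and 4.28% in PTX+GCV and 6.17% and 4.77% in Control. The part of spot numbers or UMI shares in these values was not tested.

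Isocortex spots numbered 573 and 636 in PTX+GCV and 582 and 482 in Control. In these spots 0 of 14348 genes passed in edgeR (0%), with a smallest adjusted p of 0.0853. At an unadjusted p under 0.05, 480 genes (3.35%) lay higher and 676 (4.71%) lower, but 805 and 377 when scaled by total counts. DESeq2 passed 3 as higher (0.0794%) and 6 as lower (0.159%) of 3778. Without Control replicate 2, edgeR passed 19 as higher and 88 as lower.

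Among cortical genes higher in PTX+GCV, Bhlhe40 held 160 and 175 CPM in PTX+GCV, 125 and 131 in PTX and 103 and 120 in Control, a log2 difference of 0.59 ± 0.10 (edgeR adjusted p = 0.0853). Spred2, an inhibitor of Ras signalling, held 85.5 and 86.3 CPM in PTX+GCV and 58.2 and 63.1 in Control. Spink8, a protease inhibitor whose UMIs lay to 67.5% in hippocampus spots, held 7.06 and 6.20 CPM in the isocortex of PTX+GCV and 1.32 and 2.36 in Control. CA field genes measured in isocortex spots lay higher for 6 of 13 and lower for 1, with a median of 0.33. With clusters at resolution 0.3 this median was 0.08, so it depended on which spots were counted as isocortex. At that resolution the spots named isocortex included a cluster of 2361 spots led by Ccn3 and Lypd1. These 2 genes also led the piriform and amygdalar cluster at resolution 0.15, so that isocortex was a wider set.

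Among cortical genes lower in PTX+GCV, Junb held 108 and 85.6 CPM in PTX+GCV, 124 and 83.2 in PTX and 277 and 151 in Control, a log2 difference of −1.15 ± 0.21 (edgeR adjusted p = 0.0853). Mobp held 297 and 287 CPM in PTX+GCV, 370 and 374 in PTX and 404 and 424 in Control, a log2 difference of −0.51 ± 0.09. Ndrg2, an astrocyte gene, held 386 and 325 CPM in PTX+GCV, 338 and 372 in PTX and 581 and 489 in Control. Rapgef4, an exchange factor activated by cAMP, held 251 and 221 CPM in PTX+GCV, 238 and 245 in PTX and 440 and 314 in Control. For Junb, Ndrg2 and Rapgef4 the PTX+GCV and PTX sections overlapped, whereas for Mobp the PTX+GCV sections were lowest.

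In the isocortex 14 of 27 immediate early genes lay lower and 1 higher, with a median of −0.25. Astrocyte genes had 8 of 18 lower and 0 higher with a median of −0.29, and microglial genes 6 of 20 lower and 0 higher with a median of −0.17. Interneuron and GABA genes had 7 of 18 higher and 1 lower, with a median of 0.20. The median over all genes tested in the isocortex was −0.00. The 10 genes of the senescence panel had 1 higher and 0 lower there.

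In hippocampus spots 0 of 11953 genes passed (0%, smallest edgeR adjusted p = 0.946), and 291 (2.43%) lay higher and 304 (2.54%) lower at an unadjusted p under 0.05, or 380 and 181 scaled by total counts. DESeq2 passed 0. Cldn5, the claudin of endothelial tight junctions, held 40.4 and 38.3 CPM in PTX+GCV, 38.4 and 35.9 in PTX and 18.8 and 22.8 in Control, a log2 difference of 0.88 ± 0.19 (edgeR adjusted p = 0.946). Bok, of the BCL-2 family, held 188 and 157 CPM in PTX+GCV, 208 and 279 in PTX and 288 and 324 in Control. Shank3, a postsynaptic scaffold, held 11.9 and 17.6 CPM in PTX+GCV and 54.6 and 29.2 in Control. The PTX+GCV and Control sections did not overlap for any of these. Control replicate 1 had a median of only 2568 UMIs per hippocampus spot, against 20134 in Control replicate 2 and 7102 and 13204 in PTX+GCV, and Control replicate 2 had 105 spots.

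In fiber tracts 0 of 9813 genes passed (0%, smallest edgeR adjusted p = 0.996), and 213 (2.17%) lay higher and 186 (1.90%) lower at an unadjusted p under 0.05, or 368 and 83 scaled by total counts. DESeq2 passed 0. Hpca, the neuronal calcium sensor hippocalcin, held 246 and 194 CPM in PTX+GCV, 199 and 141 in PTX and 117 and 118 in Control, a log2 difference of 0.90 ± 0.21 (edgeR adjusted p = 0.996). Of CA field genes in these spots 6 of 11 lay higher and 0 lower, with a median of 0.89. Aqp4, the astrocytic water channel, held 108 and 74.9 CPM in PTX+GCV, 152 and 125 in PTX and 171 and 149 in Control. Spi1, the myeloid factor PU.1, held 3.78 and 3.12 CPM in PTX+GCV, 16.8 and 10.4 in PTX and 20.1 and 12.8 in Control. For both, the PTX+GCV sections lay below all PTX and Control sections. Fiber tract spots held only 786561 and 593502 UMIs in PTX+GCV, so the Spi1 levels there stand for a few UMIs per section.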

How the data were processed

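Visium counts of 8 coronal sections (10 µm, spots of 55 µm) were used as deposited: the authors made whole UMI counts per gene and spot with Space Ranger on mm10, and the submitters' processing notes also name Seurat 4.0, of which no step is in the counts. The limits on genes (200) and mitochondrial UMIs (30%) removed 67 and 88 spots in PTX+GCV and 107 and 129 in Control. UMIs were summed per section and, for clusters, per region.

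All 8 sections entered 1 model with 4 groups, fitted in edgeR 4.0.16 (R 4.3.3; TMM scaling, filterByExpr with the senescence panel always kept, quasi-likelihood F-test, Benjamini-Hochberg over all genes tested). A standard error is the log2 difference over the square root of F. CPM use TMM-scaled totals, with no prior count, and within the spots of 1 cluster their plain total. Regions came from SCTransform and integration in Seurat 5.3.0 (1500 features, 20 principal components, resolution 0.15, alternative 0.3), and were named from marker genes. No doublet caller was run, since a spot can hold several cells. DESeq2 1.42.0, other scalings and filters, thinned counts, equal spots per region and left-out sections were alternatives. Named genes are those with the smallest p each way whose sections do not overlap (5 up and 5 down per fit, unnamed models left out, since none passed), the senescence panel, up to 4 per gene list, and region markers where a result moves with them. Members, lists and tests were chosen with earlier results of these data known. Gene coordinates are from GENCODE for mm10. The steps were tested on simulated data. The number of UMIs limits precision most for Cdkn2a and in the small regions. Images were not used here.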

Additional observations from a re-analysis of the deposited data

Results flagged for a closer look

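Of 162 named genes checked between isocortex, hippocampus and fiber tracts, 1 lay above Control in 1 region and below it in another in both PTX+GCV sections, with an unadjusted p under 0.05 in each. Cort, the interneuron peptide cortistatin, had a log2 difference (PTX+GCV minus Control) of 0.42 in isocortex and −0.88 in hippocampus, 1.30 apart. Both PTX+GCV sections lay above both Control sections in isocortex and below them in hippocampus. The difference between the regions was not tested.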

How the results depend on the processing

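Each count here is of genes passing an adjusted p of 0.05, where the main edgeR test passed 0. In the whole section DESeq2 passed 49 (20 higher, 29 lower), total-count scaling 18 (14 and 4), no filter on low counts 533 (224 and 309), of which 528 were genes that the filtered test also held, the 4 sections of PTX+GCV and Control alone 6 (Gpr151 higher and Ttr, Ecrg4, Cox8b, 2900040C04Rik and B230209E15Rik lower), no PTX+ABT263 sections 9 (3 and 6), the replicate block 1 and equal spots per region 2. Leaving out 1 section gave 0 to 16, with 7 higher and 5 lower without PTX+GCV replicate 1, 6 and 10 without Control replicate 1, and 1 and 7 without Control replicate 2. Thinned counts and all spots gave 0. In the isocortex DESeq2 passed 9, total counts 4, no filter 130, the replicate block 4 and thinned counts 6, and leaving out 1 section gave 0 to 107. In the hippocampus no filter passed 20 and the 4 sections alone 3, and leaving out 1 section gave 0 to 1. In fiber tracts no filter passed 10, and leaving out 1 section gave 0 to 2. Clusters at resolution 0.3 passed 0 in each region. In hippocampus they gave the same 11953 genes tested and the same smallest edgeR adjusted p of 0.946 as the main clusters. They were therefore no separate check of that region. The cause of these gaps was not tested. The log2 difference of Cdkn2a, −0.37, was 0.30 with thinned counts, 0.0828 with equal spots per region, and between −0.592 and 0.0387 with 1 section left out, the highest being without Control replicate 2. Over 17 settings and 139 genes, those with the smallest p and the list genes with an unadjusted p under 0.05, 2199 of 2362 values kept direction and side of the threshold, 163 kept direction and passed, and 0 reversed. That choice takes in genes with small errors, and Cdkn2a and named genes with a larger p, such as Cdkn1a and Tubb3, are outside this count. The replicate numbers did not pair the sections: same-numbered residuals of Control and PTX+GCV correlated at 0.147 over 11184 genes, and those of the other pairs of groups between −0.171 and 0.133. Depth limits the values of Cdkn2a, found in at most 5 spots of any of these 4 sections.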

Other observations

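Other groups of genes are given as values in whole sections, beside a median of −0.00 over all genes tested. Of 29 glutamate and GABA receptor genes, 2 lay higher and 0 lower at an unadjusted p under 0.05, and Grm2, a presynaptic metabotropic receptor, held 26.1 and 32.1 CPM in PTX+GCV, against 21.7 and 23.7 in Control. Interneuron and GABA genes moved in both directions, with 5 of 18 higher, 4 lower and a median of 0.05. Npy, neuropeptide Y, held 176 and 246 CPM in PTX+GCV, against 159 and 154 in Control. Of 18 DNA repair genes 1 lay higher and 0 lower, and Parp1, the strand break sensor, held 49.3 and 53 CPM in PTX+GCV, against 42.2 and 45.3 in Control. Of 27 heat shock and chaperone genes 1 lay higher and 0 lower, and 21 fitted values were above 0. The median was 0.10, and −0.01 without PTX+GCV replicate 2.

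Haemoglobin transcripts were low in both groups and high in PTX. Hba-a1, an alpha globin, held 13.9 and 8.22 CPM in PTX+GCV, 73.0 and 79.1 in PTX and 24.6 and 12.8 in Control. The PTX+GCV and Control sections overlapped, at an edgeR adjusted p of 0.733.

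The unnamed model 2900040C04Rik, chosen after its values were seen, held 2.56 and 1.96 CPM in PTX+GCV, 8.68 and 7.65 in PTX and 10.4 and 7.65 in Control. It was among the leading genes of the choroid plexus cluster. Gh, growth hormone, also chosen after its values were seen, had 0 and 0 CPM in PTX+GCV, 2.52 and 7.68 in PTX and 0.698 and 7.24 in Control. Of the 2 Control sections, replicate 2 held nearly all of it.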
